A study of Sorghum bicolor with 63 samples.

Results

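In sorghum leaves, 177 of 35567 features in the deposited table formed a trough after 3 h without nitrate: high at 0 h, low at 3 h and high again at 24 h. The members were chosen from the leaf values themselves, on log2(TPM + 1), where TPM is the abundance of a transcript scaled so that every library sums to the same total. A member had a 3 h group mean more than 1.2 below both the 0 h and the 24 h mean, with every 3 h library under every 0 h and 24 h library. It also had a mean of at least 5 TPM at 0 h in leaf and of at least 1 TPM over the primary root libraries, and 2 genes were left out. The 0 h, 3 h and 24 h levels in leaf are therefore a description with no test, and the tests below use leaf groups and root tissues that did not set the trough.

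The libraries came from seedlings of sorghum line BTx623, the reference inbred line, grown in solution with nitrate (0 h), moved to solution without nitrate (0.5, 3 and 24 h) and returned to nitrate (24.5 and 48 h). A further group is labelled as the nitrogen recovery control at 48 h. Leaf, primary root and lateral root each had 7 groups of 3 libraries, 21 per tissue and 63 in all. Each sample pooled 5 plants by the labels and 10 to 15 by the methods, and the last sampling lay 48 h after the return of nitrate by the labels and 24 h after it by the methods. The light period was 16 h. No library kept in nitrate was sampled at 3 h, and the 0, 24 and 48 h samplings share a clock time, so the absence of nitrate and the time of day cannot be told apart at 3 h. In these bulk samples fewer cells of a type and less RNA per cell cannot be told apart either.

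Plants take up nitrate through transporters, reduce it to ammonium and build it into amino acids, and much of the carbon and reducing power for this comes from photosynthesis in the leaf. Many leaf transcripts also follow the light and the circadian clock, including transcripts for starch and sucrose synthesis and for chloroplast proteins. The transcription factors (TFs) of the nitrogen network include NIN-like proteins, which act in nitrate signalling, and families known from development, stress and the clock.

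The tissue labels were checked with markers. PPDK2, a pyruvate phosphate dikinase of C4 photosynthesis, had a median of 16851 TPM in leaf against 79.4 in primary root and 28.3 in lateral root, and LHCB5, a light-harvesting protein, 4778 against 10.6 and 6.75 TPM. NAR2.1, the partner protein of root nitrate transporters, had a median of 0.351 TPM in leaf, 106 in primary root and 133 in lateral root. The values of 2 libraries stood apart from their labels. The library labelled replicate 1 of lateral root at 0 h held 15523 TPM of PPDK2 and 4281 TPM of LHCB5, and its nearest library across genes was replicate 3 of the leaf 48 h control (r = 0.994, against a mean of 0.731 with its own group). Replicates 2 and 3 of that control were in turn nearest to it (r = 0.994 for both). The library labelled replicate 1 of the leaf 48 h control was nearest to a leaf library of 3 h (r = 0.979, against 0.968 with its own group). Whether libraries were exchanged was not tested, and every comparison, that with the 48 h control included, uses the labels as deposited. Counts of calls that rest on either library are given with and without it. Values of single genes are in part given only 1 way. The primary root 24.5 h group also had 1 library with 1398 TPM of PPDK2 and 30736 genes at 1 TPM or more.

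The members covered a wide range of leaf levels. The median member had 50.7 TPM at 0 h, 12.1 TPM at 3 h and 57.1 TPM at 24 h, and group means at 0 h ran from 5.32 to 4143 TPM. The difference between 3 h and 0 h had a median of -1.70 on the log2 scale and reached -4.11, and 53 members lay more than 2 and 14 more than 3 below 0 h. At 24 h, 143 of 177 members were within 0.5 of their 0 h level on the log2 scale, with a median difference of 0.05. The 7 that remained below 0 h by more than 1 were AlaAT1, SORBI_3003G149100, SORBI_3007G204100, SORBI_3005G122500, SORBI_3003G237600 and 2 ENSRNA features. The most abundant member, SORBI_3003G036200, had 4143 ± 643 TPM at 0 h, 1189.5 ± 269 at 3 h and 2971 ± 152 at 24 h (SD, n = 3). Over all 19882 leaf genes with at least 1 TPM in at least 3 libraries, the median difference between 3 h and 0 h was 0.15, and it was 0.01 after median-of-ratios scaling. The median of the members was then -1.85. Of the members, 100 were above their 0 h level at 24 h in the deposited TPM, whereas after median-of-ratios scaling 116 were below it.

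**Figure D1:**
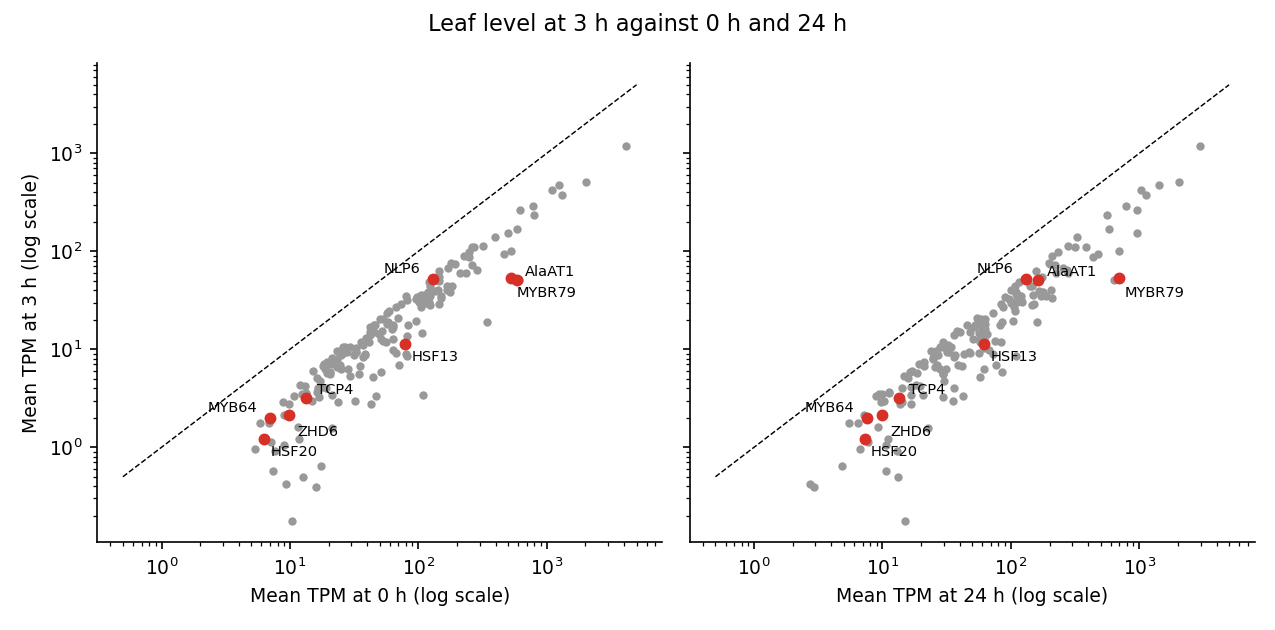
Mean TPM of each of the 177 members at 3 h (y axis) against 0 h (left) and 24 h (right), 3 libraries per mean, on log axes, with the line of equal level dashed and the 8 members named in the nitrogen network in red. All points lie below the line because the rule chose them so; AlaAT1 and MYBR79 lie among the members farthest below the line in the left panel, and AlaAT1 lies closer to it in the right panel, where its mean is 164 TPM.

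The members just inside were SORBI_3003G235400, with a log2 difference of -1.203 from 0 h (15.1, 5.99 and 16.9 TPM at 0, 3 and 24 h), and SORBI_3005G217000, with -1.203 from 24 h (227, 90.4 and 210.3 TPM). Just outside were SORBI_3001G361700, with -1.198 from 0 h (40.8, 17.3 and 55.7 TPM), and SORBI_3002G324500, with -1.1996 from 24 h (296, 99.8 and 232 TPM). On the level conditions, SORBI_3002G126700 with 5.32 TPM at 0 h was inside and SORBI_3005G037300 with 4.80 TPM outside, and SORBI_3010G244100 with a primary root mean of 1.07 TPM was inside and SORBI_3008G008500 with 0.947 TPM outside.

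At 0 h, 138 of 177 members (78.0%) had a higher mean TPM in leaf than in primary root, with a median ratio of leaf to primary root of 5.10. Of the 11839 genes that met both level conditions of the rule, 33.0% were higher in leaf, with a median ratio of 0.661. Against lateral root 137 members were higher in leaf (28.1% of those genes), and without the leaf-like library 139 were (30.6%). The rule used the 0 h leaf level and the primary root level, so these shares are a description. In primary root the median member had 12.0 TPM over all libraries, and 54 members had a mean under 5 TPM there. By their IDs, 170 members lay on chromosomes 1 to 10, with 7 to 36 on each, and 7 were features with an ENSRNA identifier. In 9 cases 2 members had neighbouring IDs, such as SORBI_3002G125200 and SORBI_3002G125300. Over the 21 leaf libraries the correlation of the 9 pairs ran from 0.706 to 0.979, and these libraries include those of 0, 3 and 24 h, where the rule gave all members the same trough. Whether the counting used the strand is not given in the sources used here, so overlapping neighbours may share reads.

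Of the gene classes of the study's nitrogen network, 0 of 12 nitrate assimilation genes, 0 of 15 nitrogen transporters and 0 of 5 carbon metabolism genes were members. Of these genes 9, 13 and 5 had at least 1 TPM in at least 3 leaf libraries. Members made up 177 of the 19882 such leaf genes, so 0 in classes of this size is not read as a result. In amino acid metabolism 1 of 8 genes was a member, the alanine aminotransferase AlaAT1 (SORBI_3001G260800), which exchanges the amino group between alanine and 2-oxoglutarate. In leaf it had 698, 577 and 473 TPM at 0 h, 53.4, 52.2 and 45.8 TPM at 3 h, and 142, 176 and 174 TPM at 24 h. Its 3 h libraries were the lowest of the whole series of leaf samples. It differed from most members in that its 24 h mean (164 ± 18.6 TPM, SD, n = 3) differed by -1.81 log2 units from the 0 h mean (582 ± 112 TPM).

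Among the 255 TFs of the network 7 were members, and 202 of the 255 had at least 1 TPM in at least 3 leaf libraries. Members made up 177 of the 19882 leaf genes at that level, and whether the shares differ was not tested. MYBR79 (SORBI_3007G047400) belongs to the MYB-related family, which in Arabidopsis includes core factors of the circadian clock; the sources used here give this gene no further role. It had the deepest trough of the 7, with 553, 569.6 and 448 TPM at 0 h, 56.1, 57.7 and 46.1 TPM at 3 h, and 606, 867 and 597 TPM at 24 h. Its level was 398, 262 and 287 TPM after 0.5 h without nitrate and 309.9, 221 and 240.3 TPM at 24.5 h, in both cases under every library taken 0.5 h earlier. The neighbouring ID, SORBI_3007G047450, was also a member at a far lower level, with 13.9, 11 and 6.32 TPM at 0 h and 0.116, 0.248 and 0.170 TPM at 3 h.

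NLP6 (SORBI_3003G003600), a NIN-like protein of the family that carries nitrate signals, had the shallowest trough of the TFs. Its leaf values were 132, 140.4 and 120.0 TPM at 0 h, 44.2, 59.5 and 52.3 TPM at 3 h, and 108, 169 and 118 TPM at 24 h. At 0.5 h it had 106 ± 7.96 TPM and at 48 h 151 ± 11.2 TPM, and 3 h was the lowest of its 7 leaf groups. Of the heat stress TFs, HSF13 (SORBI_3001G496200) went from 78.6 ± 20.4 TPM at 0 h to 11.3 ± 3.22 at 3 h and 62.1 ± 20.5 at 24 h, and HSF20 (SORBI_3006G182800) from 6.33 ± 1.66 to 1.204 ± 0.398 and 7.27 ± 1.48 TPM. Both stood low at 48 h too, HSF13 at 26.1 ± 6.0 and HSF20 at 1.52 ± 0.655 TPM. TCP4 (SORBI_3004G354700), of a family that acts in leaf development, had 13.4 ± 2.53, 3.18 ± 0.162 and 13.4 ± 1.16 TPM. ZHD6 (SORBI_3009G244200), a zinc finger homeodomain TF, had 9.90 ± 1.16, 2.14 ± 0.239 and 9.87 ± 1.92 TPM. MYB64 (SORBI_3005G062000) had 7.02 ± 2.99, 1.99 ± 0.429 and 7.53 ± 2.85 TPM at the same times, and at 48 h it was at 1.45 ± 0.454 TPM, the level of the trough.

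**Figure D2:**
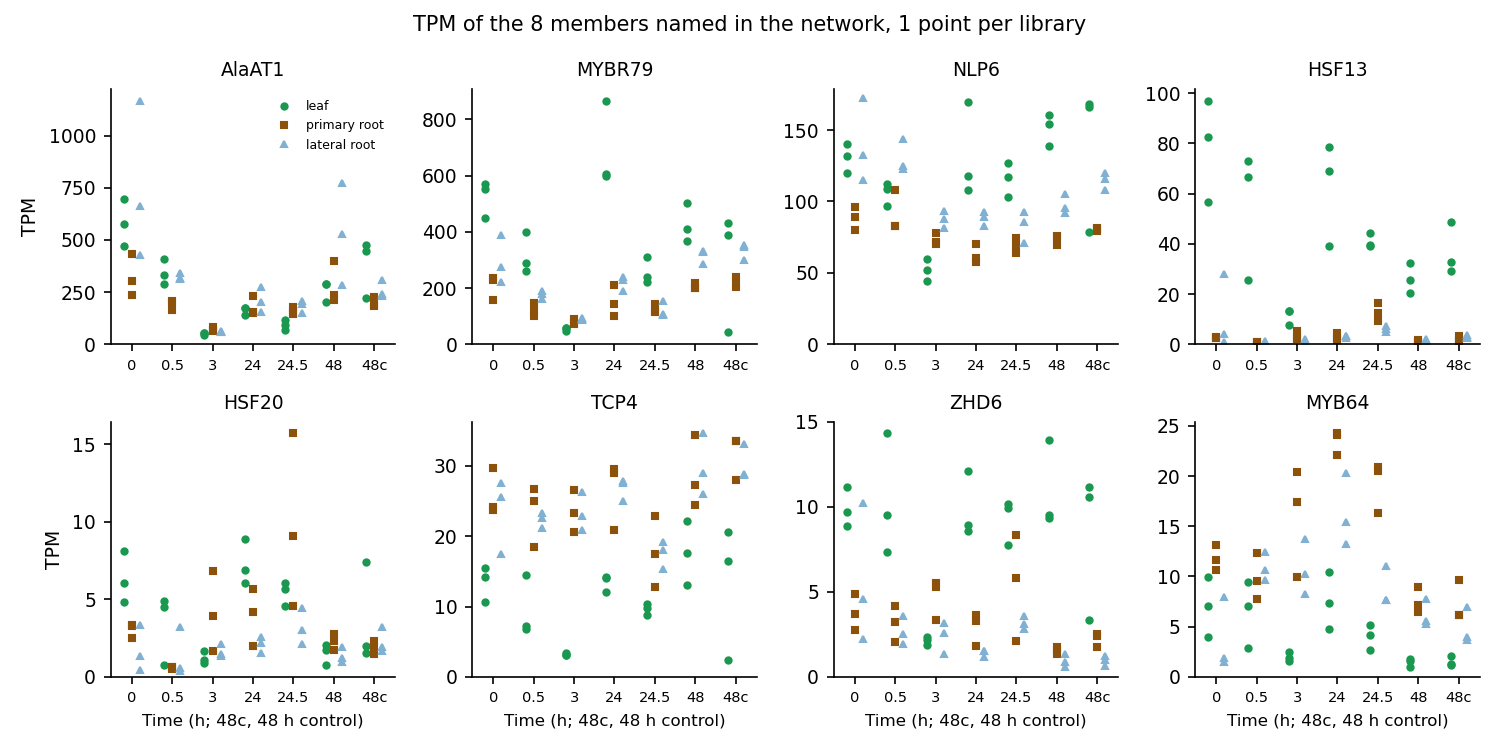
TPM (y axis, from 0) of the 8 members named in the nitrogen network in every library, with 3 points per tissue and time (leaf circles, primary root squares, lateral root triangles; 48c is the 48 h control). In leaf all 8 are lowest or near lowest at 3 h; AlaAT1 and MYBR79 are also low at 3 h in both roots, at 63.3 to 81.4 and 72.1 to 88.2 TPM in primary root, whereas TCP4 and MYB64 are not. The leaf-like library labelled lateral root at 0 h is included.

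Descriptions projected from Arabidopsis or rice were at hand for 18 members, HSF20 included. They were chosen for having a description, and no theme was tested. SORBI_3001G239500, a starch synthase, which lengthens the glucan chains of starch, had 70.0 ± 2.08 TPM at 0 h, 20.6 ± 8.26 at 3 h and 54.9 ± 18.1 at 24 h. SORBI_3003G403300, a sucrose phosphate synthase, an enzyme of sucrose synthesis, had 319 ± 48.4, 114 ± 22.6 and 278 ± 12.5 TPM. SORBI_3001G134100, with a carbohydrate-binding CBM48 domain, had 82.8 ± 6.34, 17.8 ± 4.05 and 82.6 ± 20.0 TPM. The 24 h replicates had a larger SD than those of 0 h in the starch synthase and the CBM48 protein.

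SORBI_3004G032400, the L-aspartate oxidase that opens NAD synthesis in plants, had one of the deeper troughs, with 89.1, 91.1 and 58.7 TPM at 0 h, 8.74, 8.58 and 9.62 TPM at 3 h and 83.4, 54.0 and 81.6 TPM at 24 h. SORBI_3005G068700, an NAD kinase, which makes NADP from NAD, had 150.4 ± 18.0, 33.6 ± 0.519 and 209 ± 44.2 TPM. SORBI_3006G161500, the chloroplast elongation factor G of plastid translation, was among the most abundant members, at 1323 ± 125, 375 ± 24.4 and 1124 ± 40 TPM. SORBI_3009G054900, a calcium-activated RelA/SpoT-like protein, of the enzymes that make the alarmone ppGpp, had 144 ± 13.5, 28.8 ± 1.40 and 151 ± 43.2 TPM. SORBI_3004G343500, a carboxyl-terminal processing peptidase of the chloroplast, had 34.4 ± 8.88, 5.62 ± 0.769 and 29.7 ± 10.6 TPM.

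Described transporters were SORBI_3006G244000, a probable sulfate transporter (143 ± 24.1, 40.6 ± 6.24 and 206 ± 4.01 TPM at 0, 3 and 24 h), SORBI_3002G293500, a phosphate transporter of the PHT4 type (80.9 ± 20.0, 31.8 ± 3.88 and 111 ± 25.9 TPM), and SORBI_3005G206500, a magnesium/proton exchanger (25.9 ± 5.62, 9.17 ± 2.00 and 48.0 ± 16.6 TPM). The remaining described members were a hydroxyproline-rich glycoprotein (SORBI_3009G242100, 287, 64.0 and 274 TPM), protein TSS (SORBI_3004G327700, 81.2, 13.7 and 60.5 TPM), a U-type cyclin (SORBI_3006G225200, 49.7, 14.5 and 64.7 TPM), a BTB/TAZ protein (SORBI_3003G385100, 18.8, 6.22 and 28.0 TPM), a pentatricopeptide repeat protein (SORBI_3008G047100, 16.5, 3.997 and 14.1 TPM) and a receptor-like kinase (SORBI_3002G074000, 5.83, 1.78 and 5.51 TPM).

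The 6 members with the largest difference between 3 h and 0 h included AlaAT1 and 5 genes with no description in the sources used here. SORBI_3003G149100 had 284, 351 and 392 TPM at 0 h, 20.1, 15.4 and 21.3 TPM at 3 h and 204, 89.4 and 186 TPM at 24 h. SORBI_3001G472800 had 583, 729 and 509 TPM at 0 h, 87.8, 32.2 and 30.9 TPM at 3 h and 591, 667 and 634 TPM at 24 h. At 24 h the first stayed under its 0 h libraries and the second was back in their range. SORBI_3007G204100 (43.1 ± 2.54, 2.76 ± 1.23 and 16.6 ± 8.55 TPM) and SORBI_3005G122500 (17.6 ± 5.21, 0.644 ± 0.386 and 4.87 ± 2.07 TPM) also came back in part, while SORBI_3004G004800 had 46.9 ± 22.1, 3.37 ± 1.3 and 42.6 ± 17.3 TPM. At 48 h these 3 genes had means of 2.96, 0.834 and 10.9 TPM, under those of 24 h.

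The remaining leaf groups are set beside 0 h and 24 h as a description. At 0.5 h the median difference from 0 h was -0.36 on the log2 scale, against 0.04 over all leaf genes, and 161 of 177 members were lower. For 51 members every 0.5 h library was under every 0 h library, where 4.3% of the 19882 leaf genes were lower without overlap, and for 1 member every library was above (4.89%). From 24 h to 24.5 h, the first 0.5 h after nitrate was returned, the median difference was -0.51 and 93 members were lower with no overlap, against 10.2% of leaf genes, and 3 were higher (9.97%). At 48 h, 78 members lay under every 24 h library (17.2% of leaf genes) and 18 above (12.6%). The 0 h and 24 h libraries helped to choose the members, so nothing is read from these shares.

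By library, the members' median difference from the 0 h mean was -1.66, -1.80 and -1.74 at 3 h, between -0.52 and -0.41 at 24.5 h and between -0.38 and -0.30 at 48 h. In the libraries of 0.5, 24.5 and 48 h, between 0 and 15 of 177 members were at or under their highest 3 h library, against 63.6% to 80.3% of the 19882 leaf genes. The rule chose members whose 3 h libraries were low, so nothing is read from this difference.

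The library labelled replicate 1 of the 48 h control differed from replicates 2 and 3. Its members' median was -1.39, against -0.30 and -0.37, and 77 members were at or under their highest 3 h library, against 15 in each of the others. Of the 19882 leaf genes, 50.2% were at or under that level in replicate 1, 73.8% in replicate 2 and 62.3% in replicate 3. Replicate 1 lay below both other replicates for 143 members, or 80.8%, where 25% of leaf genes did. MYBR79 had 43.5 TPM in it, against 430.5 and 388 TPM, and TCP4 had 2.37 against 20.7 and 16.4 TPM. AlaAT1 had 221 TPM against 478 and 446 TPM, well above its 3 h values. SORBI_3003G149100, the member with the largest leaf fall from 0 h to 3 h, had 361, 357 and 345 TPM and did not set this library apart.

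**Figure D3:**
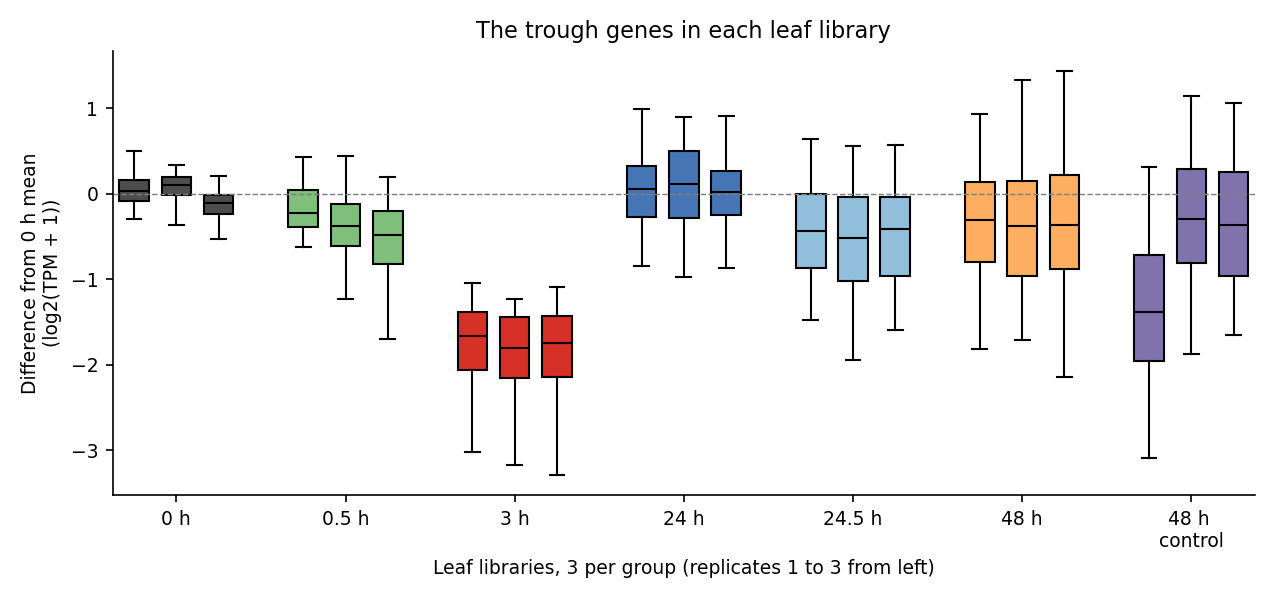
Difference of each of the 177 members from its own leaf 0 h mean (y axis, log2(TPM + 1)) in all 21 leaf libraries, grouped by time, with replicates 1 to 3 from left (box, median and quartiles over genes; whiskers, the 5th to 95th percentile). The 3 h boxes are low by choice of the genes; the first library of the 48 h control has a median of -1.39, while the other 2 are at -0.30 and -0.37.

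The leaf groups that the rule did not use allow 3 tests. At 24.5 h, soon after nitrate was returned, members were compared with 0.5 h after its removal, the same clock time on the day before. Of 177 members, 0 were called higher and 5 lower (limma, a call needing an adjusted p below 0.05 with a log2 fold change above 1 in size), against 1.6% higher and 1.05% lower among the 19088 genes tested. Their median log2 fold change was -0.11, against 0.07 over all genes. AlaAT1 fell from 409.9, 334 and 288 TPM to 114, 70.6 and 91.1 TPM (log2 fold change -1.90 ± 0.30 SE, adjusted p = 0.00746). The chloroplast elongation factor G (SORBI_3006G161500) fell from 1038, 1077 and 969.5 TPM to 505, 459.9 and 510.3 TPM (-1.06 ± 0.18, adjusted p = 0.0107), and the starch synthase (SORBI_3001G239500) from 56.7, 68.0 and 45.1 to 21.8, 25.1 and 27.7 TPM (-1.14 ± 0.29, adjusted p = 0.0440). The groups of these 3 genes did not overlap. The other 2 were SORBI_3001G355600 (-1.16) and ENSRNA049483730 (-1.58). MYBR79 gave -0.29 ± 0.65 (adjusted p = 0.829), and the 6 other TFs did not pass either.

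All 4 unused leaf groups share 1 estimate of the spread, which holds the divergent control library. Without it, 18 members were called, 7 higher (background 2.64%) and 11 lower (1.94%). AlaAT1 kept its fold change with an adjusted p of 0.000756. SORBI_3001G300800 was among the members then called higher, at 86.5, 95.4 and 126 TPM against 37.4, 40.9 and 35.8 TPM (1.39 ± 0.16, adjusted p = 0.000959; 0.0845 with the library). Leaving out 24.5 h replicate 1 or 2 left 1 call, 0.5 h replicate 2 left 2 and 0.5 h replicate 3 left 3. These last counts have no share over all genes beside them, so nothing about the members is read from them.

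From 24.5 h to 48 h, 6 members rose and 1 fell, against 1.29% higher and 1.38% lower among all genes. AlaAT1 rose again, to 289, 202 and 291 TPM (1.498 ± 0.30, adjusted p = 0.0220). SORBI_3002G376800 rose from 17.5, 15.4 and 12.8 TPM to 48.4, 53.1 and 36.1 TPM (1.52 ± 0.25, adjusted p = 0.0126) and SORBI_3010G042900 from 18.7, 19.0 and 25.5 TPM to 63.3, 53.1 and 61.6 TPM (1.46 ± 0.33, adjusted p = 0.0325). Their 0 h means were 11.6 and 18.1 TPM, so at 48 h both stood above the level from which the trough began. Replicates 2 and 3 of the 48 h control had 14.7 and 20.2 TPM of the first and 52.2 and 58.3 TPM of the second. ENSRNA049483730 (1.46), SORBI_3001G261408 (1.41) and SORBI_3002G376900 (1.21), the neighbouring ID of SORBI_3002G376800, rose as well, and SORBI_3004G112300 fell by 2.06.

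Without the divergent control library 16 members rose (background 2.51%) and 6 fell (3.23%). The largest rise was then that of SORBI_3009G119200, from 55.6, 50.8 and 38.2 TPM to 288, 446 and 542 TPM (3.09 ± 0.27, adjusted p = 0.000133; 0.0867 with the library). Its 48 h control libraries had 17.1, 424 and 525 TPM, the first of them the divergent one. HSF20 was among those that fell (-1.38 ± 0.39, adjusted p = 0.0423). Leaving out any 1 library of 24.5 or 48 h, with the divergent library kept, left 0 to 2 calls, given without a share over all genes and not read as a result about the members. At 48 h against the 48 h control, which asks whether leaves given back nitrate differed from the control group, 0 of 177 members were called (limma; 25 had an unadjusted p under 0.05, and the lowest adjusted p was 0.4605), where 0.00524% of genes were. The members' median log2 fold change was 0.33, and it was -0.03 without the divergent library, when 0 members passed (background 0%) and 13 had an unadjusted p under 0.05. Over all genes tested by limma, 1893 of 19088 had an unadjusted p under 0.05, and 1174 of 18956 without the divergent library.

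In primary root, from 0 h to 3 h, the median log2 fold change of the members was -0.07, and 106 of 177 stayed within 0.5 of their 0 h level. The rule had fixed the fall in leaf and the difference between the tissues was not tested, so nothing is read from a smaller median here. Of 177 members tested 16 fell and 4 rose, where 2.42% of 23186 genes fell and 1.81% rose. The rule used the primary root libraries only for a minimum mean level. The markers of leaf tissue were higher in replicates 1 and 3 of 3 h, with PPDK2 at 80.6, 57.0 and 68.4 TPM at 0 h and 172.5, 50.2 and 402 TPM at 3 h, and LHCB5 at 5.36, 5.21 and 6.26 and at 41.8, 10.6 and 133 TPM. Their part in the changes was not tested.

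AlaAT1 fell in primary root from 430.5, 235 and 305 TPM to 81.4, 67.8 and 63.3 TPM (-2.14 ± 0.24, adjusted p = 2.75e-05) and returned to 233, 151 and 154 TPM at 24 h (1.304 ± 0.24, adjusted p = 0.00170). MYBR79 fell from 235, 230.0 and 156 TPM to 75.1, 88.2 and 72.1 TPM (-1.37 ± 0.21, adjusted p = 0.000502). At 24 h it had 142, 212 and 102 TPM, a rise of 0.89 ± 0.21 with an adjusted p of 0.00941 that lay under the fold threshold. L-aspartate oxidase (SORBI_3004G032400) fell from 11.6, 12.3 and 11.6 TPM to 5.002, 4.96 and 4.204 TPM (-1.17 ± 0.13, adjusted p = 3.67e-05). In none of the 3 genes did the groups of 0 h and 3 h overlap. The 6 other network TFs did not pass, with log2 fold changes from -0.27 for NLP6 to 0.35 for MYB64.

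The largest fall in primary root was that of SORBI_3004G112300, from 115, 27.9 and 37.4 TPM to 10.96, 9.36 and 7.33 TPM (-2.32 ± 0.49, adjusted p = 0.00594). SORBI_3003G149100, with the largest leaf fall from 0 h to 3 h, fell from 68.8, 87.5 and 88.1 TPM to 18.0, 21.2 and 18.7 TPM (-2.02 ± 0.28, adjusted p = 0.000216). The neighbours SORBI_3002G125300 (-1.95) and SORBI_3002G125200 (-1.59) fell together, as did SORBI_3007G047450 (-1.58) beside MYBR79. The other falls ranged from -1.87 for SORBI_3010G036000 to -1.02 for SORBI_3001G134500.

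The 4 members that rose in primary root at 3 h were 2.26% of 177, against 1.81% of all genes tested. The rule had fixed a fall of every member in leaf, so nothing is read from the opposite direction. SORBI_3001G142800 had 0.560, 0.229 and 0.262 TPM at 0 h and 9.12, 4.97 and 14.4 TPM at 3 h (2.86 ± 0.37, adjusted p = 0.000111), while in leaf it had 20.9, 21.7 and 14.5 TPM at 0 h and 6.38, 7.83 and 6.37 TPM at 3 h. SORBI_3010G248301 rose by 1.51, SORBI_3001G336200 by 1.45 and SORBI_3005G007800 by 1.07. For all 4 the 3 h libraries were above all 0 h libraries. SORBI_3001G142800, SORBI_3005G007800 (49.1, 31.2 and 70.8 TPM) and SORBI_3010G248301 (63.03, 44.1 and 137 TPM) were highest in replicate 3 of 3 h, as were both leaf markers, and lowest in replicate 2, whereas SORBI_3001G336200 had 6.92, 11.1 and 9.03 TPM. A role of leaf RNA in these rises was not tested.

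From 3 h to 24 h in primary root, 8 members rose and 3 fell, where 2.48% of genes rose and 2.79% fell. The rises were those of SORBI_3003G354900 (4.45, 5.63 and 4.44 TPM to 15.7, 17.9 and 16.6 TPM, 1.61 ± 0.20, adjusted p = 0.000130), SORBI_3010G036000 (1.53), SORBI_3001G300800 (1.51), AlaAT1, SORBI_3003G149100 (1.27), SORBI_3001G198000 (1.23), SORBI_3002G273300 (1.13) and SORBI_3007G045500 (1.03). SORBI_3010G248301 (-1.87), SORBI_3002G245400 (-1.65) and SORBI_3008G064700 (-1.02) fell. Both primary root comparisons share the 3 h libraries, so a fall and a rise of the same gene are not independent. Without replicate 2 of 24 h, 7 members rose and 11 fell, and without replicate 1 of 24 h 6 members were called. These counts stand without a share over all genes, so nothing about the members is read from them.

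**Figure D4:**
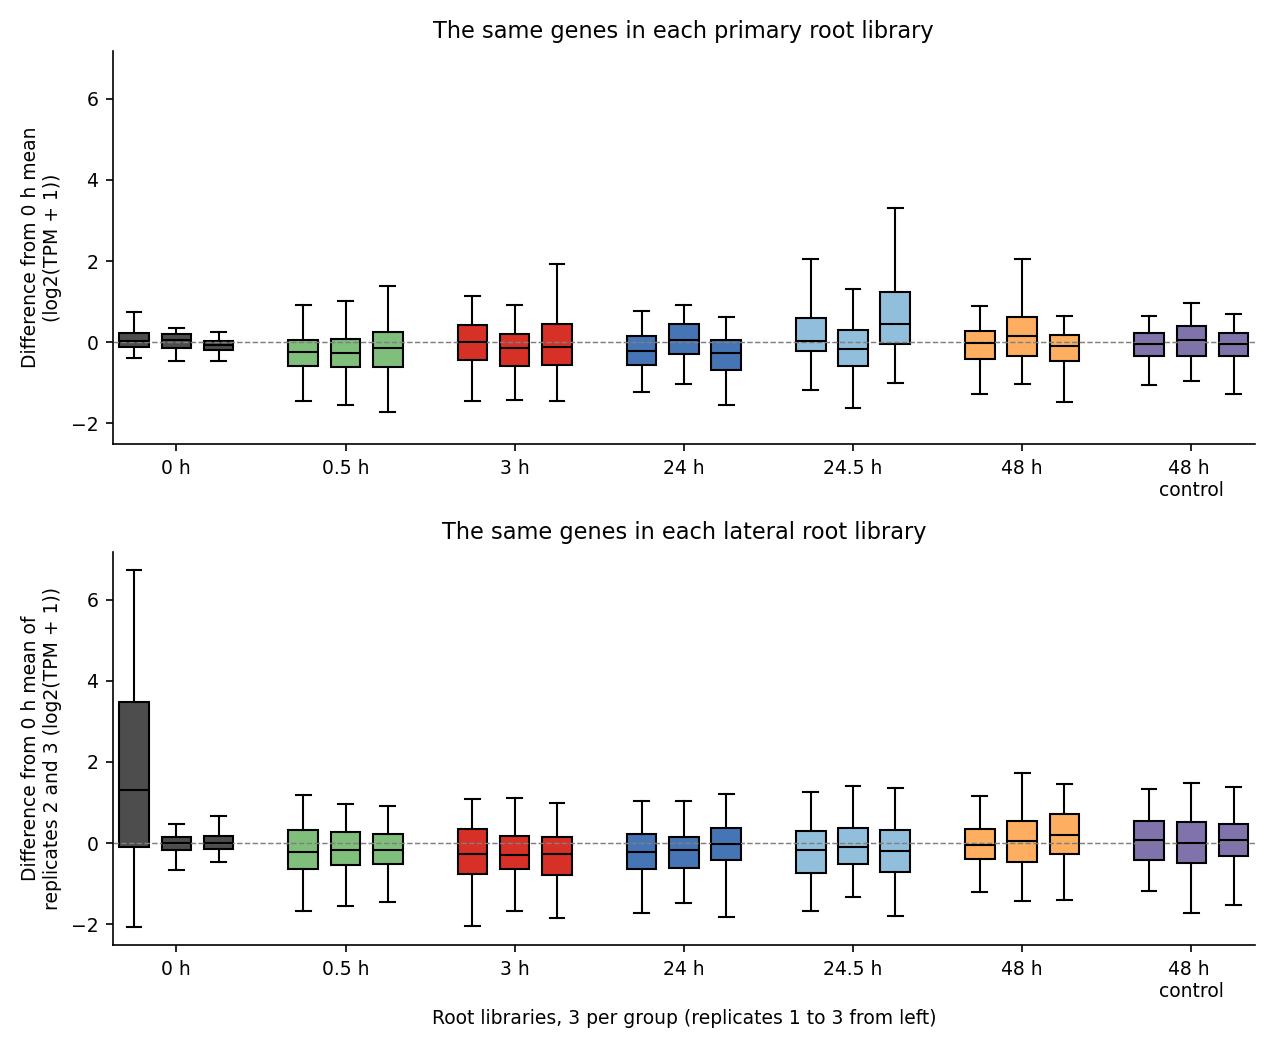
Difference of the same 177 members from their 0 h level in primary root (top, from the mean of 3 libraries) and lateral root (bottom, from the mean of replicates 2 and 3) in log2(TPM + 1), drawn as in the plot of the leaf libraries. The 3 h medians lie from -0.14 to 0 in primary root and from -0.29 to -0.26 in lateral root. The library labelled replicate 1 of lateral root at 0 h has a median of 1.304. The rule fixed the fall in leaf, so nothing is read from the smaller medians in the roots.

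In lateral root, 25 of 175 tested members were called lower at 3 h than at 0 h and 5 higher, where 1.96% of 23151 genes were lower and 4.91% higher. The 0 h group holds the leaf-like library, in which most members are high. Without it 26 of 173 members fell and 7 rose, where 3.76% of 23017 genes fell and 3.78% rose, and the members' median was -0.29 against -0.04 over all genes. With that library kept, 75 members were called without replicate 2 of 0 h, 79 without replicate 3, 17 without replicate 1 of 3 h, 19 without replicate 2 of 3 h, and 0 in a fit of only the 0 h and 3 h groups. The counts of these last fits are given without a share over all genes, so nothing about the members is read from them. The values below for 3 h against 0 h are those without the leaf-like library. PPDK2 was then at 44.6 and 25.01 TPM at 0 h and 28.3, 27.5 and 34.7 TPM at 3 h, and LHCB5 at 5.25 and 2.95 and at 6.08, 7.83 and 11.8 TPM.

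AlaAT1 fell in lateral root from 1168 and 662 TPM to 63.5, 58.9 and 58.4 TPM (-3.85 ± 0.32, adjusted p = 7.93e-07). MYBR79 fell from 276 and 222 TPM to 90.5, 92.1 and 86.6 TPM (-1.45 ± 0.15, adjusted p = 7.65e-06). L-aspartate oxidase fell from 19.1 and 18.6 TPM to 2.47, 3.25 and 3.85 TPM (-2.26 ± 0.23, adjusted p = 5.25e-06). SORBI_3003G149100 fell from 208 and 243 TPM to 19.3, 23.9 and 18.5 TPM (-3.40 ± 0.38, adjusted p = 1.67e-05). The 0 h and 3 h libraries of these 4 genes were far apart, and with the leaf-like library kept their adjusted p ranged from 3.84e-05 to 0.000106. SORBI_3004G112300 had the largest fall (-4.36 ± 0.76, adjusted p = 0.000881). The chloroplast elongation factor G fell by 1.11 and the RelA/SpoT-like protein SORBI_3009G054900 by 1.38, and the starch synthase SORBI_3001G239500 passed the fold threshold only with the leaf-like library (-1.33, against -0.88 without). NLP6 had a log2 fold change of -0.498 ± 0.12 with an adjusted p of 0.00780, under the fold threshold.

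SORBI_3001G142800 rose in lateral root too, from 0.247 and 0.317 TPM to 9.04, 5.96 and 3.15 TPM (2.37 ± 0.33, adjusted p = 0.000123). With the leaf-like library, which has 14.1 TPM of it, it was not called. MYB64 rose from 1.46 and 7.97 TPM to 10.2, 13.7 and 8.27 TPM (1.29 ± 0.39, adjusted p = 0.0317), although its 0 h libraries differed widely between themselves. In leaf MYB64 had gone from 9.97, 7.10 and 4.0 TPM to 1.89, 1.62 and 2.46 TPM at the same times.

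From 3 h to 24 h in lateral root 10 members rose and 0 fell, where 0.544% of genes rose and 0.38% fell. MYBR79 rose to 191, 228 and 238 TPM (1.27 ± 0.19, adjusted p = 0.00301), AlaAT1 to 273, 153 and 204 TPM (1.75 ± 0.34, adjusted p = 0.0163) and SORBI_3003G354900 from 3.86, 5.20 and 5.94 TPM to 13.9, 20.8 and 17.5 TPM (1.61 ± 0.25, adjusted p = 0.00363). These fits by limma kept the leaf-like library, and without it the adjusted p of the 3 genes were 1.47e-05, 0.000591 and 0.000154. SORBI_3007G047450 (2.04), SORBI_3001G300800 (1.97) and SORBI_3010G036000 (1.97) gave the largest fold changes. When the leaf-like library was left out of the fit, 12 members rose (background 3.18%) and 7 fell (1.83%). With that library kept, leaving out 3 h replicate 1 left 3 calls and leaving out 3 h replicate 2 or 24 h replicate 1 left 4. The counts with that library kept stand without a share over all genes, so nothing about the members is read from them.

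**Figure D5:**
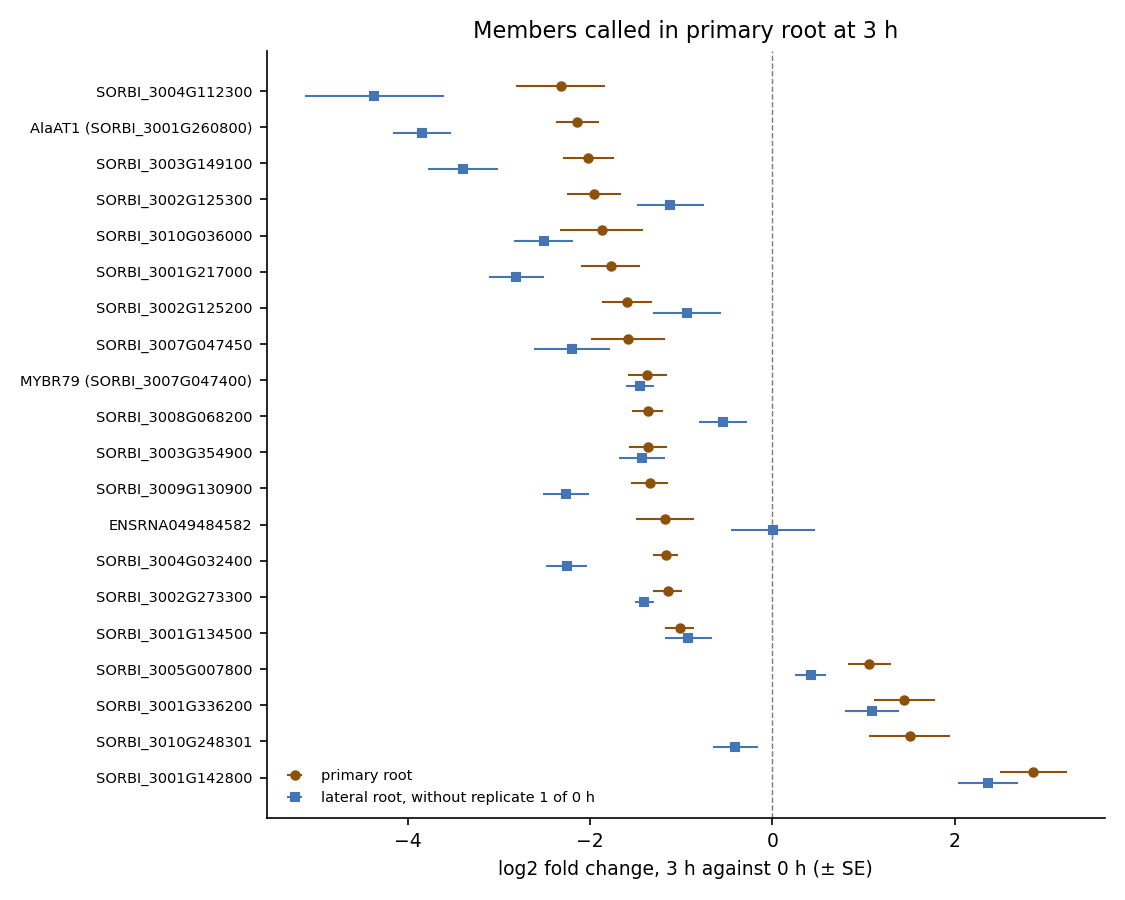
Log2 fold change of 3 h against 0 h (x axis, ± SE from limma) for the 20 members called in primary root (circles), with the value of the same gene in lateral root without the leaf-like library (squares). AlaAT1 has -2.14 in primary root and -3.85 in lateral root, MYBR79 -1.37 and -1.45, and SORBI_3001G142800 lies above 0 in both, at 2.86 and 2.37.

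Whether the change at 3 h differed between lateral and primary root was tested as an interaction. No member passed (0 of 177; limma; 72 had an unadjusted p under 0.05 and the lowest adjusted p was 0.0518), where 0.078% of 24365 genes did. Without the leaf-like library 0 members passed as well (background 0.0951%), 33 had an unadjusted p under 0.05 and the lowest adjusted p was 0.0748. Over all genes tested by limma, 6068 of 24365 had an unadjusted p under 0.05 with that library and 3090 of 24181 without it. With the leaf-like library kept and replicate 2 or 3 of lateral root at 0 h left out, 73 members passed in each case. Leaving out any other single library gave 0 to 2. No share over all genes is given for these fits, so nothing about the members is read from their counts.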

How the data were processed

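Poly(A) RNA of the 63 libraries was sequenced by the authors, who used Trimmomatic for trimming, STAR for alignment to the BTx623 genome and StringTie for quantification, and deposited TPM values per gene with a column per library. Each column sums to the same total, so the depth is unknown, counting intervals cannot be computed and precision rests on 3 libraries per group. Replicates are labelled as biological, each a pool of plants; whether they came from separate tanks is not given in the sources used here, so p-values measure the spread between these samples. The authors' own calls used DESeq2 on counts, which are not used here.

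Members were found by the rule above, and the members and gene lists were chosen with earlier results of these data known. Genes with at least 1 TPM in at least 3 libraries of a fit were log2-transformed after adding a pseudocount of 1 and tested with limma (version 3.58.1, R 4.3.3, eBayes with a trend), with Benjamini-Hochberg adjustment over all genes tested. Fold changes on this scale understate the change of low genes. The leaf fit held the 12 libraries of the 4 groups that the rule did not use, each root fit all 21 libraries, and the interaction fit both roots. A gene was called where the adjusted p was below 0.05 and the log2 fold change above 1 in size. Pearson's r between libraries is across genes, which are not independent replicates.

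Members are named if they are in the network, match a keyword list, are among the 6 deepest troughs, are among the 4 largest calls per comparison and direction, or lie nearest to a threshold. Every further member with a description, any call beyond these, the members with neighbouring IDs, the most abundant member and the 7 still low at 24 h were named after their values were seen. No ID matched the RefSeq gene table, so 25 members have a name or description, and keyword lists could only be matched to those.

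In simulated data with 200 genes changed by 2 log2 units, 180 were recovered with 8 false calls for leaf 24.5 h against 0.5 h (19088 genes). For primary root 3 h against 0 h (23186 genes) 191 were recovered with 7 false calls. For lateral root 3 h against 0 h (23017 genes, without the leaf-like library) 185 were recovered with 4. Smaller changes were not simulated, and the 5 leaf calls at 24.5 h against 0.5 h lay from 1.06 to 1.90 in size. These rates therefore do not give the recovery of changes of that size.

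Alternatives were a replicate block, a pseudocount of 0.1, testing without a filter or only genes whose mean reached 5 TPM, quantile normalization, scaling by medians of ratios, eBayes without a trend, the adjusted p alone, a fit of only the groups compared, all leaf libraries in 1 fit, thresholds of 1.0 and 1.5, and each library left out. Leaving the leaf 48 h control replicate 1, the lateral root 0 h replicate 1 and the primary root 24.5 h replicate 3 out of comparisons they do not belong to was chosen after seeing the data. Tables were handled with Python 3.11.15 and pandas 2.3.3.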

Additional observations from a re-analysis of the deposited data

Results flagged for a closer look

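In 9 cases a member was called higher in a root at 3 h, with every 3 h library above every 0 h library, while the rule had fixed a fall in every leaf library; the difference between the tissues was not tested. In primary root these were SORBI_3001G142800 (log2 fold change 2.86), SORBI_3010G248301 (1.51), SORBI_3001G336200 (1.45) and SORBI_3005G007800 (1.07). In lateral root they were MYB64 (SORBI_3005G062000, 1.54), SORBI_3007G198100 (1.34), SORBI_3002G041200 (1.29), SORBI_3003G237600 (1.08) and SORBI_3002G027500 (1.07). The primary root cases were 2.26% of 177 members, against 1.81% of all genes tested. The lateral root cases were 2.86% of 175 members, against 4.91%. Neither count is read as a result about the members. Without the leaf-like library of lateral root at 0 h, MYB64 (1.29) and SORBI_3002G027500 (1.12) were still called, whereas SORBI_3007G198100 (0.84), SORBI_3003G237600 (0.83) and SORBI_3002G041200 (0.78) stayed under the fold threshold. The groups had 3 libraries each, too few to look for single outlying values in a group.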

How the results depend on the processing

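The number of members was 308 with a threshold of 1.0, all 177 among them, and 100 with 1.5. With 1 leaf library of 0, 3 or 24 h left out it lay between 174 and 209, and 159 to 175 of these were shared with the 177. It was 219 with a pseudocount of 0.1, 227 with median-of-ratios scaling, 234 with quantile normalization and 206 with no condition on root. Of these, 172 to 177 were shared. Without replicate 3 of primary root at 24.5 h in the level condition, 170 of the 177 members remained. The others met that condition only through this library, which had 1398 TPM of PPDK2.

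Calls of members at leaf 24.5 h against 0.5 h (5) were 2 with no filter, 9 with the adjusted p alone, 18 in a fit of only the groups compared and 15 with all leaf libraries, and 1 to 18 with 1 library left out. At leaf 48 h against 24.5 h (7) they were 2 with no filter, 25 in a fit of only the groups compared, 13 with all leaf libraries, and 0 to 22 with 1 left out; at 48 h against its control, 0 to 1. In primary root at 3 h (20) the adjusted p alone gave 31 and libraries left out 16 to 21; at 24 h against 3 h (11) it gave 29, and 6 to 18. In lateral root at 3 h (30) a fit of only the groups compared gave 0, and libraries left out 17 to 79; at 24 h against 3 h (10), 3 to 19. The interaction (0) gave 1 with a pseudocount of 0.1 and 1 with the filter at 5, and 0 to 73 with 1 left out. The cause was not tested. Where a count of calls stands without a share over all genes, here or above, nothing about the members is read from it. For the calls of single members, pooled over all comparisons, 1050 alternatives kept the call, 255 lost it and 0 reversed its direction. Of 7 fits with 1 library left out, calls at leaf 48 h against 24.5 h held in 1 to 3. Those at leaf 24.5 h against 0.5 h held in 1 to 7, with AlaAT1 in 7 and the starch synthase in 1. Calls in primary root at 3 h held in 3 to 7.

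Replicate numbers were not treated as pairs, since in none of the 7 comparisons did all 3 pairs have a correlation of deviations over 0.1. With 3 libraries per group this cannot show that equal replicate numbers share no batch. With a replicate block 2 members were called at leaf 24.5 h against 0.5 h, 3 at leaf 48 h against 24.5 h and 1 in the interaction; the other 5 counts stayed within 1.5 times.

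TPM hold no depth, so the precision of low members cannot be given, and 3 libraries per group limit every comparison.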
